A study of Sus scrofa with 6 samples.

Results

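The myogenic regulatory factors MYOD1, MYF5, MYF6 and MYOG, the satellite cell factor PAX7, the MEF2 factors MEF2A, MEF2C and MEF2D and the growth inhibitor myostatin (MSTN) were followed in 2 muscles of the pig. The 9 genes were listed by name for their known roles, and a probe was taken as a member when the array design gave it one of these names or described it so. Of the 43603 probes of the array, 14 probes of 6 of the 9 genes were found, with 6 for MEF2C, 2 each for MEF2A, MYF6 and MYOG and 1 each for MYOD1 and MSTN. No probe could be named as MYF5, PAX7 or MEF2D, and those genes were not analysed here. Each of the 14 exceeded the background clearly on every array, and all 14 were tested.

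Myogenic regulatory factors are basic helix-loop-helix proteins that bind E-box sequences with E-protein partners and switch on muscle genes, with MYOD1 and MYF5 acting in the commitment of myoblasts, MYOG in their differentiation, and MYF6 (MRF4) as the member that stays abundant in adult fibres. MEF2 proteins bind beside them, and in adult muscle they carry calcium and calcineurin signals to genes of slow and oxidative fibres. Myostatin is a secreted member of the TGF-beta family that limits muscle growth through activin type II receptors and SMAD proteins, and its loss gives the double-muscled phenotype of cattle and other animals.

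The muscles were the longissimus dorsi (LDM) and the psoas major (PMM) of female Landrace pigs slaughtered at 210 days of age, with 3 arrays for LDM and 3 for PMM. The study took both muscles from each of 3 unrelated pigs kept on the same diet, and no treatment differed between the muscles. Total RNA was labelled with Cy3 and hybridised to one-colour Agilent arrays of 60-base probes. The comparison asks how the muscles, which differ in fibre composition and meat quality, differ in gene expression.

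The label on RNA extraction speaks of adipose tissue, whereas the samples are labelled as muscle. All 12 skeletal muscle markers examined exceeded the background clearly on every array, as did 5 of the 6 adipocyte markers. Detection alone therefore does not tell the tissues apart. The 75th percentile of the intensity lay between 583.2 and 871.9 units, 58.5% to 72.4% of the spots of an array were marked as well above background, and no spot was saturated. Within a muscle the arrays correlated at 0.94 to 0.97 over probes, and arrays of the same replicate number in the 2 muscles correlated at 0.97, 0.99 and 0.98. Throughout, the normalized log2 signal is the log2 intensity minus the log2 of the 75th percentile of its array, and a difference is the PMM mean minus the LDM mean on this scale. Signals of different probes depend on the probe and are not set against each other.

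Probes of MYOD1, MYOG and MEF2A (the MEF2A probe that the design lists under transcript variant 2) are printed here because each carries a result described further on. They begin at bases 727, 615 and 1183 of the transcript that the array design names for each. Their place in an exon of the pig genome was not determined here.
MYOD1, A_72_P185276: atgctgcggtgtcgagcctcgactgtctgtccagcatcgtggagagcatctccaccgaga
MYOG, A_72_P177666: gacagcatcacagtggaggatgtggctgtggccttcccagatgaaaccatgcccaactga
MEF2A, A_72_P223392: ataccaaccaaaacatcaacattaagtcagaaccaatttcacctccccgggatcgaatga

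A MEF2C probe that begins at base 176 of its transcript is shown beside the probe of MEF2B, since the family members are alike in this stretch. Capitals mark the 9 of 60 bases in which both differ.
MEF2C, A_72_P024306: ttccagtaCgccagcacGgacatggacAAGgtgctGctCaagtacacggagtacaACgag
MEF2B, A_72_P301754: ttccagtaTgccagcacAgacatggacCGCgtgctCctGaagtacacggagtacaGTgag
Cross-hybridisation of MEF2B RNA to that MEF2C probe was not tested. On the array, the probe most similar to each of the other 13 member probes differed from it in at least 21 of the overlapping bases. Only probes of the array were compared. Likeness of the 13 to RNA of family members was therefore not tested, and a relative may have no probe at the same stretch.

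With the scaling used throughout, myostatin gave the largest difference of the 14 probes. That order depended on the setting, as with normexp background correction MYF6 probe A_72_P157631 gave -0.73 and MSTN -0.71. In order of the replicate numbers, the LDM arrays had normalized log2 signals of 1.26, 0.95 and 1.09 and the PMM arrays 0.58, 0.82 and -0.42. All 3 PMM values lay below all 3 LDM values, and PMM replicate 3 stood lowest. The intensities behind these values were 1608, 1688 and 1389 units in LDM and 874.7, 1384 and 497.3 units in PMM. The difference was -0.77 with a standard error of 0.38 (n = 3 per muscle), or a 1.71-fold higher level in LDM, and the SD over the arrays was 0.15 for LDM against 0.66 for PMM.

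That difference did not pass the tests of all probes. The exact two-sided permutation test of the 6 arrays gave p = 0.1, the smallest p that 3 arrays against 3 allow, and limma gave an adjusted p of 1. With the replicate number as a block the 95% interval of the MSTN difference was -1.51 to -0.04, and the adjusted p of limma was 0.42. When 1 probe per named gene was tested with that block, the adjusted p for MSTN was 0.077. Without PMM replicate 3 the difference was -0.40. In whole muscle a lower signal can come from fewer cells of a type or from less RNA per cell, and these cannot be told apart.

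MYF6, the myogenic factor of mature fibres, had lower mean signals in PMM at both of its probes. At probe A_72_P157631 the normalized log2 signal was 6.69, 6.64 and 6.66 on the LDM arrays and 6.42, 6.22 and 5.69 on the PMM arrays, again by replicate number. The LDM arrays lay within 0.044 of each other, and all 3 PMM values were below them. The difference was -0.55 with a standard error of 0.31, and the exact permutation test again gave p = 0.1. With the replicate block the limma adjusted p was 0.41, with a 95% interval of -1.06 to -0.04.

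The brighter MYF6 probe, A_72_P213442, read 7.71, 7.32 and 7.26 in LDM and 7.54, 7.19 and 6.29 in PMM. Here the muscles overlapped, because LDM replicates 2 and 3 lay below PMM replicate 1. Its difference was -0.43 with a standard error of 0.38, and the exact permutation p was 0.4. PMM was lower than LDM for each replicate number, by 0.17, 0.14 and 0.97. The difference was thus largest for replicate 3. Without PMM replicate 3, in a fit without the block, the MYF6 difference was -0.07.

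MYOG, which drives the differentiation of myoblasts into fibres, had values close to the 75th percentile of the arrays. Probe A_72_P177666 read -0.01, 0.14 and 0.42 in LDM and -0.46, -0.33 and 0.41 in PMM. The muscles overlapped, since PMM replicate 3 was as high as LDM replicate 3, whereas the other 2 PMM arrays lay below all LDM arrays. The difference was -0.31 with a standard error of 0.34, an exact permutation p of 0.3 and a 95% interval with the replicate block of -0.77 to 0.15. Without PMM replicate 1 the MYOG difference was -0.14, and without PMM replicate 3 it was -0.58.

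The other MYOG probe, A_72_P213577, matches an expressed sequence tag that the design names as this gene. It read -2.64, -2.51 and -2.87 in LDM and -3.50, -2.51 and -3.18 in PMM, a difference of -0.39 with a standard error of 0.34. The values of LDM replicate 2 and PMM replicate 2 were nearly equal, and the muscles overlapped. Its intensities were dim, at 51.6 to 152.7 units, and with normexp background correction its difference was 0.18, in the opposite direction.

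MYOD1, the factor of myoblast commitment that is also kept in adult fast fibres, varied more between replicates than between muscles. The normalized log2 signal was -1.83, -3.15 and -0.91 in LDM and -1.01, -2.83 and -1.41 in PMM. Replicate 2 was lowest in both muscles, and the values overlapped throughout. The intensities were dim, from 98.2 to 346.8 units. The values spanned 2.24 over the LDM arrays and 1.82 over the PMM arrays, against a difference of 0.22 with a standard error of 0.65.

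PMM exceeded LDM in MYOD1 for replicates 1 and 2, by 0.83 and 0.32, and lay below it for replicate 3, by 0.50. The exact permutation p was 0.8, and the 95% interval with the replicate block ran from -0.50 to 0.93, so that a 1.9-fold higher level in PMM lay at its upper limit. Without the block the MYOD1 interval was wider, from -1.26 to 1.70. The direction was not stable: it turned to -0.38 without LDM replicate 2, to -0.15 without PMM replicate 1 and to -0.025 with the slide as a random block.

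**Figure D1:**
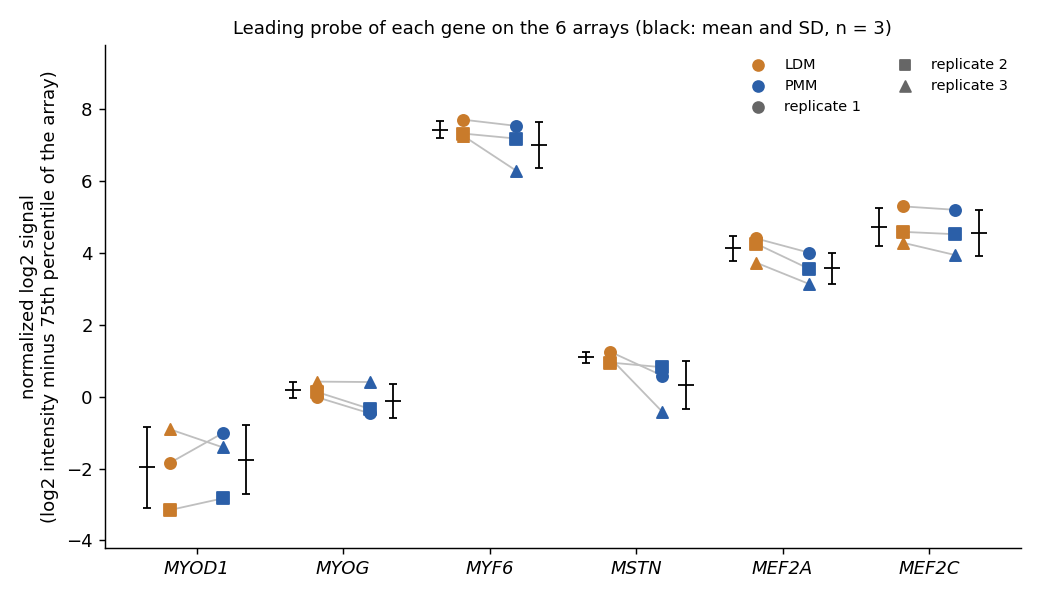
Normalized log2 signal (vertical axis) of the leading probe, the brightest of each gene, on the 3 LDM arrays (orange) and the 3 PMM arrays (blue), with marker shapes for replicate numbers, grey lines joining equal numbers and black bars for the mean and SD (n = 3). The MSTN values of PMM all lie below those of LDM, whereas the MYOD1 values spread over 2.24 in LDM; heights of different genes are not comparable.

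MEF2A, a MEF2 factor of adult muscle, was lower in PMM for each replicate number at both of its probes. The brighter probe, A_72_P165041, which the design lists under transcript variant 1, read 4.40, 4.26 and 3.73 in LDM and 4.01, 3.56 and 3.14 in PMM. PMM lay below LDM for each replicate number, by 0.39, 0.70 and 0.59, but PMM replicate 1 exceeded LDM replicate 3, so the muscles overlapped. The MEF2A difference was -0.56 with a standard error of 0.35, or 1.48-fold higher in LDM, with an exact permutation p of 0.2.

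Whether the MEF2A probes tell the transcript variants apart was not tested. The probe listed under variant 2, A_72_P223392, read 1.02, -0.57 and -0.53 in LDM and 0.19, -1.07 and -1.30 in PMM. Its replicate 1 arrays stood above the others in both muscles, and the muscles overlapped. The difference was -0.70 with a standard error of 0.55, and PMM was again lower for each number, by 0.83, 0.49 and 0.78. With the replicate block the 95% intervals of both MEF2A probes lay below 0, at -0.98 to -0.14 and -1.13 to -0.28, but the limma adjusted p values were 0.33 and 0.26. In the test of 1 probe per named gene with the block, MEF2A had an adjusted p of 0.096. Without PMM replicate 3 the difference of the brighter probe was -0.35. Leaving out LDM replicate 1 brought the difference of A_72_P223392 to -0.18, leaving out PMM replicate 3 to -0.41 and leaving out PMM replicate 1 to -1.16.

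MEF2C, which is needed for the slow fibre programme and takes its signals from calcineurin and class II histone deacetylases, showed no detectable difference at any of its 6 probes. The differences ran from -0.17 to 0.24 with a median of -0.04, and their standard errors from 0.36 to 0.57. The brightest probe, A_72_P385578, read 5.30, 4.59 and 4.29 in LDM and 5.20, 4.52 and 3.94 in PMM. Its muscles overlapped, and the exact permutation p was 0.7. Values of a MEF2C probe spanned 0.76 to 1.69 over the LDM arrays and 0.79 to 1.88 over the PMM arrays, and replicate 3 was lowest in both muscles at all 6 probes.

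Within single replicate numbers the MEF2C differences ran from -0.35 to 0.31 over the 6 probes. The 95% intervals with the replicate block reached from -0.59 to 0.65, so a change of MEF2C beyond 1.57-fold in either direction lay outside them. Without the block the intervals were wider, reaching down to -1.29 at A_72_P382973 and up to 1.55 at A_72_P435084. The probes did not share a direction: the brightest was lower in PMM for each replicate number, by 0.10, 0.07 and 0.35, and A_72_P435084 was higher for each, by 0.31, 0.30 and 0.12. In fits without the block, the latter difference was -0.24 without PMM replicate 1 and -0.16 without LDM replicate 3. Such a fit keeps the other array of that number, so it also carries differences between replicate numbers. The difference at a further MEF2C probe, A_72_P156751, was 0.05 and turned to -0.019 with median centring, to -0.023 with the slide as a random block and to -0.091 with normexp background correction. The probe that resembles MEF2B gave a difference of -0.02, and the MEF2B probe itself gave -0.15 with a standard error of 0.35.

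**Figure D2:**
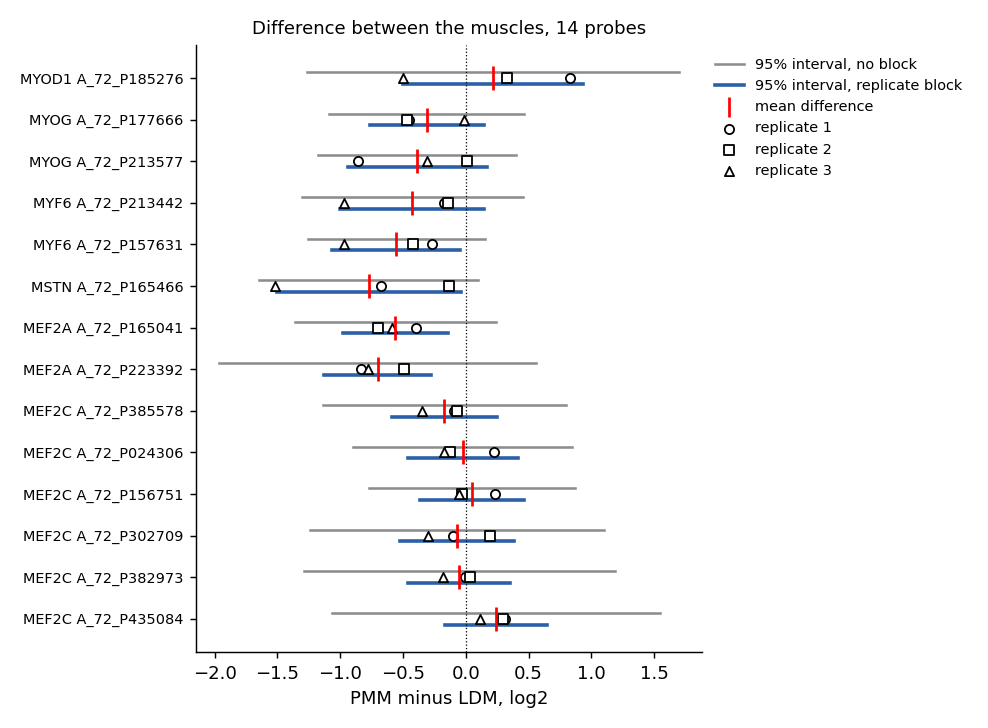
Difference of PMM minus LDM on the log2 scale (horizontal axis) for each of the 14 probes, with the mean difference as a red bar, the difference within each replicate number as open markers, and 95% intervals without (grey) and with (blue) the replicate block. The blue intervals of MSTN, both MEF2A probes and 1 MYF6 probe lie below 0, and all grey intervals cross 0.

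Counted together, 0 of the 14 probes were called by limma at an adjusted p under 0.05, where 0 of all 25834 tested probes (0.0%) were called. At an unadjusted p under 0.05 the counts were 0 of 14 and 691 of 25834. With the replicate block the calls were 0 of 14 and 16 of 25834 (0.0619%). When 1 probe per named gene was tested with the block, 0 of the 6 genes were called and 180 of 2815 genes (6.39%).

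By direction, 11 of the 14 probes had a lower mean in PMM, and the median difference was -0.24, beside -0.03 over all tested probes. The median of the leading probes of the 6 genes was -0.37, beside -0.0013 over the leading probes of all named genes. PMM values all lay below LDM values at 2 of the 14 probes (MSTN and MYF6), compared with 2.75% of all tested probes, and all lay above at 0, compared with 3.22%. PMM was lower for each of the 3 replicate numbers at 7 of 14 probes, where 18.5% of all tested probes were, and higher at 1, where 17.5% were. With the replicate block, limma gave an unadjusted p under 0.05 with PMM lower at 4 of 14 probes (MSTN, MYF6 and both of MEF2A), and at 4.63% of all tested probes. Probes of 1 gene share its RNA and are not independent.

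The genes around these factors were examined by list, each gene by its brightest probe. Among 20 listed partners and inhibitors of the myogenic factors, 6 had a tested probe and 0 were called, and the median difference was -0.08. ID2, which keeps E-proteins from pairing with myogenic factors, had the largest difference, 0.37 with a standard error of 0.48. It was higher in PMM for each replicate number, by 0.60, 0.32 and 0.19. SIX4, a homeobox factor of early myogenesis, gave -0.25 with a standard error of 0.35 and was lower in PMM for all 3 replicate numbers. The other SIX4 probe gave -0.14 with a standard error of 0.42 and was lower in PMM for only 1 of them. SRF, which controls actin genes, gave -0.17 with a standard error of 0.41.

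Of 28 listed genes of myostatin signalling, 13 were tested, 10 with a lower mean in PMM, and the median difference was -0.19. Follistatin (FST), the secreted protein that binds and blocks myostatin and activin, had the largest. It read 2.48, 4.27 and 4.12 in LDM and 1.73, 3.53 and 2.98 in PMM. Replicate 1 was lowest in both muscles, so the muscles overlapped, but PMM was lower by 0.75, 0.74 and 1.14 within the numbers. The FST difference was -0.88 with a standard error of 0.60, and the other FST probe gave -0.64 with a standard error of 0.40. With the replicate block the adjusted p of FST was 0.22 over all probes and 0.012 over 1 probe per named gene, and in the latter test FST was called lower in PMM, the 1 call among 13 genes where 6.39% of all named genes were called. Without the block, the FST difference was -0.37 without PMM replicate 1, -0.55 without LDM replicate 2 and -1.45 without LDM replicate 1.

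TGFBR3, the betaglycan co-receptor, gave -0.56 with a standard error of 0.51, most of it from replicate 3, where PMM was lower by 1.33. Its signals were dim, from 31.6 to 146.1 units. The other TGFBR3 probe gave -0.23 with a standard error of 0.39 and was lower in PMM for 2 of the 3 replicate numbers. Decorin (DCN), a matrix proteoglycan that can hold myostatin, gave -0.43 with a standard error of 0.44, and was lower in PMM by 0.45, 0.32 and 0.51. Both other DCN probes were lower in PMM for each number as well. All 3 tested fibroblast markers (collagen genes) were also lower in PMM for each number, with a median difference of -0.82, and their summed level, as a multiple of the 75th percentile, was 4.32 to 4.52 on the LDM arrays and 2.43 to 3.68 on the PMM arrays. Their part in the DCN and FST values was not tested.

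Of the receptors, ACVR2B, the main myostatin receptor, gave -0.37 with a standard error of 0.34, and TGFBR2 and ACVR2A gave -0.34 and -0.14, all 3 lower in PMM for each replicate number. TGFBR1 gave -0.06 with a standard error of 0.28 and was higher in PMM by 0.10 for replicate 2. The signals of all these receptors were dim. They ran from 110.8 to 174.4 units for ACVR2B and from 91.0 to 285.5 units for TGFBR2. ACVR2A read 49.9 to 143.8 units and TGFBR1 79.0 to 135.7 units. SMAD2 and SMAD3, which carry the signal to the nucleus, gave 0.13 and -0.19. None of these was called in any of the tests with or without the block. GDF11, the closest relative of myostatin, gave -0.15 with a standard error of 0.39, at 26.5 to 69.2 units and well above background on 5 of the 6 arrays.

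Of 27 listed regulators of MEF2, 10 were tested, 5 higher and 5 lower in PMM, with a median difference of -0.01. PPARGC1A (PGC-1alpha), the coactivator of mitochondrial and slow fibre genes that works with MEF2, read 2.55, 2.10 and 1.81 in LDM and 3.82, 2.69 and 2.66 in PMM. All 3 PMM values lay above all 3 LDM values, and PMM replicate 1 was the highest. The difference was 0.91 with a standard error of 0.41, or 1.88-fold higher in PMM, and the exact permutation test gave p = 0.1. With the replicate block the adjusted p of PPARGC1A was 0.24 over all probes and 0.012 over 1 probe per named gene, where it was called higher in PMM, the 1 call among 10 genes beside the same 6.39%. Without PMM replicate 1 the PPARGC1A difference was 0.53.

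All 7 tested slow fibre markers were higher in PMM for each replicate number, with a median difference of 0.95 and a summed level of 1770 to 2427 times the 75th percentile on the LDM arrays and 2537 to 4069 times on the PMM arrays. TNNC1 and MYL3 of that marker list had no named probe. The 9 tested fast fibre markers had a median difference of 0.09. The part of fibre composition in the values of PPARGC1A, MYF6 and MSTN was not tested. CAMK2D, a calcium-dependent kinase, gave -0.50 with a standard error of 0.55, and MAPK12, the p38 gamma kinase of muscle, gave -0.22 with a standard error of 0.39.

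Of 19 listed satellite cell genes, 8 were tested, 5 higher in PMM, and the median difference was 0.16 with 0 called. SDC4, a heparan sulphate proteoglycan of the satellite cell surface, read -0.25, -0.03 and -0.10 in LDM and 0.94, 0.48 and 0.04 in PMM. The muscles did not overlap, although PMM replicate 3 was close to the LDM arrays. Its difference was 0.61 with a standard error of 0.33, and the block adjusted p was 0.45 over all probes and 0.13 over 1 probe per named gene. HEY1, a Notch target that keeps satellite cells quiescent, gave 0.57 with a standard error of 0.58, and CAV1, a caveolar protein that endothelial cells also carry, gave 0.33 with a standard error of 0.38. All 5 tested endothelial markers had higher means in PMM, with a median difference of 0.29, and their summed levels overlapped between the muscles. No gene of the list of 11 embryonic and denervation genes, such as embryonic myosin and the acetylcholine receptor subunits, had a named probe.

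**Figure D3:**
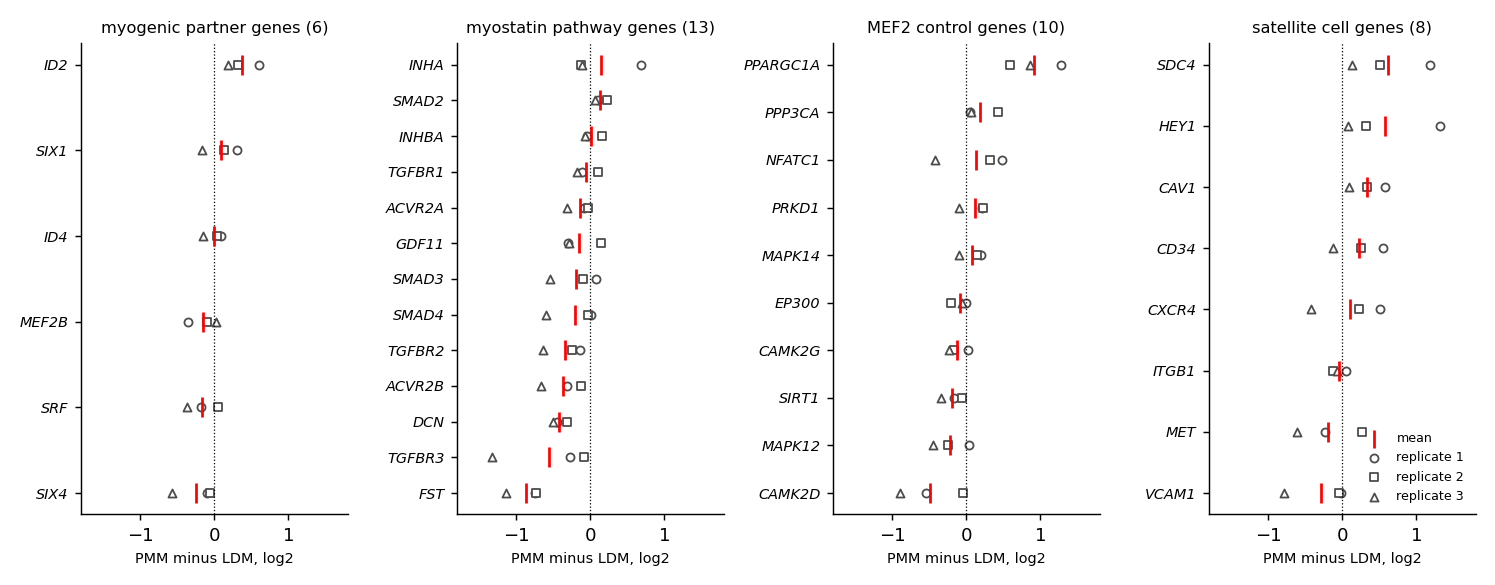
Difference of PMM minus LDM on the log2 scale (horizontal axis) for the tested genes of 4 lists, with the mean as a red bar and the difference within each replicate number as open markers. FST stands lowest in the myostatin list at -0.88 and PPARGC1A highest in the MEF2 list at 0.91.

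Among 2809 named genes with a value on all 6 arrays, those whose 6 values followed a member most closely are given as a description. The 6 arrays share scan days and scaling, and with 6 points many genes reach high correlations. SIRT1 followed MSTN most closely, with a Pearson r of 0.98, and NUDT2 came next at 0.97. SIRT1, a deacetylase that is itself in the list of MEF2 regulators, differed by -0.19. MYF6 was followed by MTERF3 and DNTTIP1 (both 0.99), MEF2A by SPACA9 (0.99) and ST3GAL3 (0.98), and MEF2C by UCHL5 and POLR2B (0.998 and 0.995). MYOD1 was followed by KLF13 and IRF3 (both 0.99), and MYOG by ANGPTL6 (0.99) and PPP2R1B (0.98).

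Between the members themselves, the leading probes of MYF6, MEF2A, MEF2C and MSTN varied together over the 6 arrays, with Pearson r from 0.58 for MEF2C with MSTN to 0.89 for MYF6 with MEF2A. MYOG ran against these, with r from -0.69 with MEF2C to -0.23 with MSTN. MYOD1 had r between -0.24 and 0.20 with each of the others. These values mix differences between muscles with those between replicate numbers and are given without a test.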

How the data were processed

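RNA of 3 LDM and 3 PMM samples was measured on one-colour Agilent arrays. The deposited values are linear intensities from Agilent Feature Extraction 10.5.1.1 per the file headers, with local background subtracted and spatial trends corrected but no normalization between arrays. For the array workflow the study cites an earlier report and for differential expression it names the MultiExperiment Viewer, without giving a normalization or test in its own text. The deposited series value table held the same intensities within 0.005 units, with column medians of 65.0, 96.4 and 62.0 units for LDM and 54.6, 89.8 and 74.0 units for PMM. It is therefore linear and not centred.

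Control spots were dropped, as were outlier spots (between 6 and 161 on an array), and repeated spots of a probe were averaged. The log2 intensity minus the log2 of the 75th percentile was taken. A probe was tested when well above background on all 3 arrays of either muscle, with at least 2 values per muscle. PMM was compared with LDM by limma 3.58.1 in R 4.3.3, two-sided, with Benjamini-Hochberg adjustment over all 25834 probes and a threshold of 0.05. Single genes were compared by exact permutation of the arrays without regard to replicate number. The spread between replicate numbers therefore stays in these p values. The procedure was tested on simulated data with planted changes larger than any member difference, so that test does not bear on differences of their size. Python scripts made the counts.

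Probes were named by RefSeq accession (2865), gene number (1293), the file's gene name (727), an older name (77), a name outside the gene table (82), the description (9) or the member rule (2), which named 5055 probes of 3418 genes. The 38548 others stayed in the test without a name. The gene table was that of the Sscrofa11.1 assembly, of which only names were used. Probes of MYF6 were found by the description and 1 MYOG probe by a lower-case name. The leading probe of a gene is its brightest by the mean over the 6 arrays.

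Labels number the replicates, and the study sampled both muscles of 3 pigs, but no label says that a number is a pig. Deviations from the mean of each muscle correlated at 0.62, 0.70 and 0.56 between arrays of the same number, and at -0.54 to -0.01 between others. Every pair exceeded 0.1, so the numbers count as pairing the arrays, and a fit with them as a block stands beside the results it bears on. Replicate number and scan day coincide. The arrays of replicate 1 were on different slides, those of replicate 2 shared 1 slide and those of replicate 3 shared another.

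The members, the lists and the genes to be named (of each list the 3 tested genes with the largest absolute difference and any that were called with or without the block, and for each member the 2 named genes most like it) were chosen with earlier results of these data known. ACVR2A, ACVR2B, TGFBR1, TGFBR2, SMAD2, SMAD3, GDF11 and MEF2B were added for their roles after their values were seen. The other probes of FST, DCN, TGFBR3 and SIX4 were also added after their values were seen. The alternatives were normexp correction (offset 50), quantile and median normalization, a percentile over detected probes, other filters, outlier spots kept, the value table, a replicate block, the slide as a random block, 1 probe per named gene and leaving out each array. The sequence of the MSTN probe is not reported here.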

Additional observations from a re-analysis of the deposited data

How the results depend on the processing

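The count of probes called over the whole array was 0 and became 1 with normexp correction, 7 with quantile normalization, 9 with median centring, 16 with the replicate block and 327 with the slide as a random block. Leaving out 1 array gave 0 to 1 calls, and 1 probe per named gene with the replicate block gave 180 genes. No member was called under any of these. The lowest adjusted p of limma over the alternatives was 0.077 for MSTN, 0.096 for MEF2A, 0.29 for MYF6, 0.43 for MYOG, 0.69 for MEF2C and 0.71 for MYOD1. Of 108 differences of the 6 leading probes under alternatives, 103 kept their direction, as did the 4 means over all probes of a gene. The exceptions were MEF2C, at 0.12 without LDM replicate 1 and 0.14 without PMM replicate 3 (-0.49 to 0.14 over the arrays left out), and MYOD1, at -0.025 with the slide as a random block, -0.38 without LDM replicate 2 and -0.15 without PMM replicate 1 (-0.38 to 0.76). The 2 member probes without overlap became 1 with median centring and 3 with quantile normalization. With 1 array left out the count was 2 to 5, the 5 without PMM replicate 1, where fewer arrays can overlap. With 1 probe per named gene and the replicate block, 1 gene of the myostatin list (FST) and 1 of the MEF2 list (PPARGC1A) were called, of 13 and 10 tested, beside 6.39% of all named genes; the replicate block changed no other call of the lists. All fits with 1 array left out had no block and kept the other array of its number. Their values therefore also carry differences between replicate numbers. With 1 array left out, FST ran from -1.45 to -0.37 and PPARGC1A from 0.53 to 1.11. ID2 and HEY1 turned to -0.068 and -0.039 without LDM replicate 1, SRF to 0.14 without that array and to 0.0025 without PMM replicate 2, and TGFBR3 to 0.030 without LDM replicate 3. The causes were not tested. With 3 arrays per muscle the precision is limited, and signals of MYOD1, TGFBR1, TGFBR2, TGFBR3, GDF11, ACVR2A, ACVR2B and the second MYOG probe were dim.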
